A study of Homo sapiens with 8 samples.

Results

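The GATA factor family was examined through the open chromatin around 5 of its genes, GATA2, GATA3, GATA4, GATA5 and GATA6. The family's regions were all ATAC-seq peaks of the 8 libraries that overlap one of these genes or the 100 kb on either side of it (GENCODE 44, GRCh38), with peaks that share at least 1 base merged over the libraries. This gave 211 of the 276061 regions found on chromosomes 1 to 22, namely 48 around GATA2, 33 around GATA3, 57 around GATA4, 35 around GATA5 and 38 around GATA6. ATAC-seq uses a transposase to cut DNA that is not covered by nucleosomes, so that a pile of cut sites marks an accessible region. The libraries came from RUES2 cells, a line of human embryonic stem cells, taken through a directed cardiac differentiation. There were 2 libraries for each of 4 stages: hESC (day 0), MES, for mesodermal cells (day 2), CP, for cardiac progenitors (day 5) and CM, for cardiomyocytes (day 14). The day 0 cells had already been exposed to the GSK3 inhibitor CHIR-99021 since the day before, MES cells had received a higher dose of it, and CP and CM cells had also received the Wnt inhibitor Xav-939. All cells came from 1 line, and cells were not sorted, so that a weaker peak and fewer cells that carry it cannot be told apart.

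GATA factors are zinc finger proteins that bind the short DNA sequence they are named after. GATA4, GATA5 and GATA6 are expressed in the heart and in endoderm derivatives, where GATA4 acts with NKX2-5 and TBX5 and with the cofactor ZFPM2 (FOG2). GATA2 and GATA3 are known for their roles in blood and endothelial cells, in T cells and in the trophoblast, and GATA factors often bind regulatory elements of their own and of each other's genes.

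The sequences below are of regions whose changes are described further on. The first and second were chosen among regions of CP and CM alone or CM alone because they hold a GATA word. The third is the gained region of highest fold near GATA5. The words seen here therefore do not give the share of regions that hold one, which follows below. Each is 200 bases around the summit of the region's highest peak, read on the plus strand of hg38. Capitals mark the GATA words that were searched, which are AGATAA or AGATAG and, with a leading T, TGATAA or TGATAG on either strand, so that a word may appear as its reverse complement. The first was called in CM alone (chr18:22267880-22268079, 98.4 kb downstream of the GATA6 start), the second in CP and CM (chr10:8117024-8117223, 62.5 kb downstream of the GATA3 start), and the third in CP replicate 2 and in both CM libraries (chr20:62485421-62485620, 9.4 kb upstream of the GATA5 start). The last pair holds regions called in all 8 libraries whose signal was higher in CM than in hESC, the start of GATA6 (chr18:22169363-22169562) and a site 84.7 kb upstream of GATA2 (chr3:128577740-128577939). Neither of these holds a GATA word in the window shown.
GATA6 +98.4 kb: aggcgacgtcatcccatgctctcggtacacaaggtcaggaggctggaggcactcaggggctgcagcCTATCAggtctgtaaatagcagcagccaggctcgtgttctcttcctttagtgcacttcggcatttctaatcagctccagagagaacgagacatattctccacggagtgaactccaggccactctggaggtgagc
GATA3 +62.5 kb: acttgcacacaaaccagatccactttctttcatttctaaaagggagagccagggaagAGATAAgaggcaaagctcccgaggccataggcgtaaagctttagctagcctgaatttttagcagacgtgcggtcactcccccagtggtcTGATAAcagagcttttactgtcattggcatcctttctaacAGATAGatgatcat
GATA5 -9.4 kb: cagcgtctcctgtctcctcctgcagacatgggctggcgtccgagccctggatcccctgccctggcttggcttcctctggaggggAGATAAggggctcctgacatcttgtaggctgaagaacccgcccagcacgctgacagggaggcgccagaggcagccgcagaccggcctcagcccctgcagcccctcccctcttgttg
GATA6 start: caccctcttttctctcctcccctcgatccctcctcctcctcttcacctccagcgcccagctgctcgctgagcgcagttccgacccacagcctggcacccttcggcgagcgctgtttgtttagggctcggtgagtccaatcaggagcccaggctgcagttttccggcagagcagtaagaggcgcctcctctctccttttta
GATA2 -84.7 kb: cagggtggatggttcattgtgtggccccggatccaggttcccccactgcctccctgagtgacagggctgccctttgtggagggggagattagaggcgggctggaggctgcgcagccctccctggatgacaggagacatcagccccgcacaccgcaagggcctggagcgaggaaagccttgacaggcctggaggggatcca

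A GATA word was present within these 200 bases in 52 of the 211 regions of the family, or 24.6% (95% Wilson interval 19.3 to 30.9%), and in 27.1% of all 276061 autosomal regions. By gene, the share was 18.8% around GATA2, 27.3% around GATA3, 24.6% around GATA4, 22.9% around GATA5 and 31.6% around GATA6. Of the family's regions gained from hESC to CM, 5 of 14 held a word (35.7%, 16.3 to 61.2%), against 54.8% of all autosomal regions gained over the same stages. Of those lost, 1 of 12 held one (8.33%, 1.49 to 35.4%), against 21.8% of all regions lost. The family's regions had a median GC content of 59.5% in this window and all autosomal regions had 52.5%, and its part in the word shares was not tested. These intervals cover counting error only.

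The libraries differed in how many regions they called, from 51521 in CM replicate 2 to 146689 in hESC replicate 2, and total read numbers are not part of the files used here. The lowest local background, which grows with read depth, lay between 2.54 extended reads in CM replicate 2 and 4.62 in hESC replicate 2. List length did not follow it in every library, as CM replicate 1 had 4.57 and called 86352 regions. Its median fold over the local background, 4.08, was the lowest of the 8 libraries, and its part in list length was not tested. A library with fewer reads calls fewer weak peaks, so a region that is missing from a list fell short of the authors' q-value threshold of 0.01 there. The stage labels were set beside peaks at the starts of marker genes. Of 7 hESC genes, 7 had one in each hESC and each MES library, 6 in each CP library and 5 in each CM library. NANOG alone was called in both hESC and both MES libraries and in none of CP and CM, while SOX2, LIN28A, DNMT3B and TDGF1 were called in all 8 libraries. Of 8 mesoderm genes, 8 had a start peak in each hESC, MES and CP library and 7 in each CM library. Of 8 cardiac progenitor genes, 7 had one in CP replicate 1 and 8 in every other library. Neither list set its own stage apart. Of 10 cardiomyocyte genes 5 and 6 had one in the hESC libraries and 9 and 8 in the CM libraries. MYH6 was called at its start in CP replicate 2 and in both CM libraries alone, while MYH7, a defining cardiomyocyte gene, had none in any library. TNNT2, ACTN2, RYR2, TTN and MYL4, from the same list, were called in all 8 libraries. Markers of other cells were found at all stages, with 2 to 6 of 6 endoderm genes, 4 to 7 of 8 endothelial and blood genes (CDH5 in no library) and 2 to 5 of 8 trophoblast genes (VGLL1, CGA and TP63 in no library) having a start peak. In every library the same held for 5 of 6 epicardial and stromal genes (POSTN in none) and 4 of 4 neural genes. An open start is often seen at genes that are not expressed, so that these counts do not measure the share of other cells.

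Most of the family's regions lay away from gene starts. By annotation, 109 were intergenic, 41 overlapped the 1 kb on either side of an annotated transcript start, 41 were intronic, 13 lay in a noncoding gene, 4 in a coding exon and 3 in an untranslated exon. Peaks in 71 of them (33.6%) came from a single library, against 40.7% of all autosomal regions, and 25 (11.8%) were called in all 8 libraries, against 9.84%. The GATA6 window (233 kb) holds no other protein-coding gene. The GATA2 window (214 kb) also holds EEFSEC and DNAJB8, the GATA3 window (230 kb) TAF3, the GATA4 window (283 kb) NEIL2, FDFT1 and CTSB, and the GATA5 window (212 kb) LAMA5, RPS21, CABLES2 and RBBP8NL. Noncoding genes are left out of these lists. The GATA5 window holds 12 of them, with regions at starts of MIR1-1HG and MIR133A2 upstream of GATA5. Counts of a window include regions at such neighbours. Of the 25 regions in all 8 libraries, 9 lay around GATA4, 7 around GATA5, 5 around GATA2, 3 around GATA6 and 1 around GATA3, and they include the starts of NEIL2, FDFT1, CTSB, LAMA5, RPS21 and CABLES2.

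**Figure D1:**
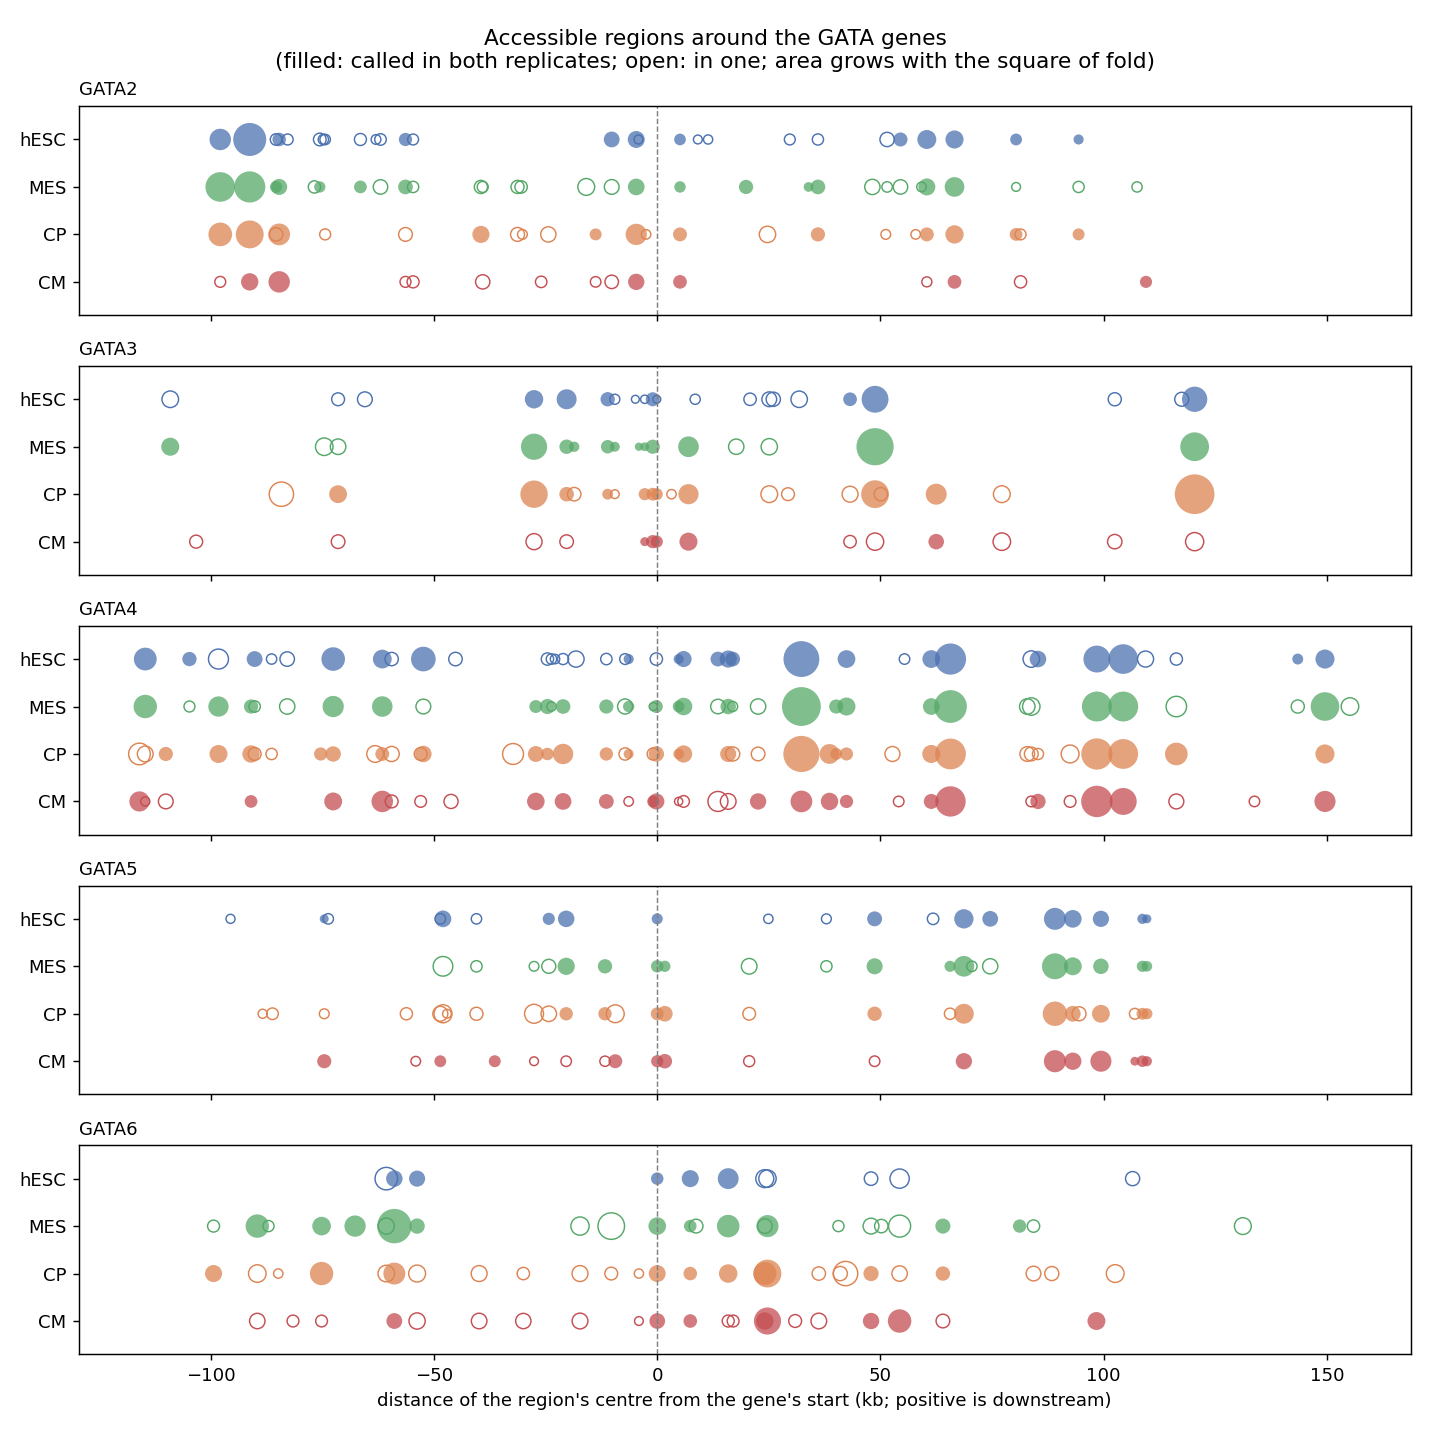
Each circle is an accessible region, placed by the distance in kb of its centre from the gene's canonical start (x axis) and by stage (rows). Filled circles were called in both replicates and open circles in 1, and the area grows with the square of the mean fold over the local background. GATA6 has 5 filled circles in hESC and 11 at MES, and GATA2 goes from 14 at MES to 6 at CM.

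The number of family regions called in both libraries of a stage was 58 at hESC, 71 at MES, 70 at CP and 51 at CM. As shares of the 211 regions, these are 27.5%, 33.6%, 33.2% and 24.2%. Over all autosomal regions, the same shares were 29.6%, 31.3%, 23.9% and 14.8%. The family's windows thus held fewer regions in CM than in MES, while the decline over all regions was steeper. GATA6 had 5, 11, 10 and 8 regions called in both libraries at hESC, MES, CP and CM, and GATA4 had 21, 22, 26 and 19. GATA5 had 13, 12, 11 and 13, GATA3 had 7, 12, 11 and 5, and GATA2 had 12, 14, 12 and 6.

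To compare windows between libraries of unequal length, the regions called in a window were divided by the regions the library called on chromosomes 1 to 22 and given per 10,000. All 5 windows together held 6.62 and 7.64 per 10,000 at hESC, 7.86 and 8.15 at MES, 9.95 and 10.4 at CP, and 10.8 and 11.8 at CM, so that no pair of stages overlapped. The relation of each window with the order of the stages was tested by an exact permutation test of Pearson's r, two-sided, over all ways of assigning 8 libraries to 4 stages. The p-values were adjusted by Benjamini-Hochberg over 18908 autosomal protein-coding genes. None of these genes (0%) passed an adjusted p of 0.05 in either direction, and 4664 of them (24.7%) had an unadjusted p under 0.05. The scaled measure went up with the stages for 69.9% of all genes, with a median r of 0.38, and the values below are read against that.

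GATA6, which marks cardiac and endodermal progenitors, had the strongest relation with stage order in the family. Its window held 0.525 and 0.75 regions per 10,000 at hESC, 1.19 and 1.58 at MES, 1.62 and 1.88 at CP, and 2.08 and 2.14 at CM. No stage overlapped with the next. Pearson's r was 0.955 (exact permutation p = 0.000794, the smallest that these assignments allow, adjusted p = 0.0758) and Spearman's rho was 0.976 (exact permutation p = 0.000794). Of all genes tested, 0.175% had a higher r. Leaving out both hESC libraries gave r = 0.912, and leaving out both of CM gave 0.935 (exact permutation p = 0.0222 for each, the smallest that 6 libraries allow). In whole numbers, 5 and 11 regions were called in hESC, 12 and 23 at MES, 15 and 21 at CP, and 18 and 11 at CM, so that the number itself was not higher at CM than at CP. With lists cut to an equal length the exact permutation p was again 0.000794 (r = 0.936), while with the numbers left unscaled r was 0.402 (exact permutation p = 0.339). The number of endoderm genes with a start peak also went up, from 4 and 4 of 6 at hESC through 5 and 5 at MES to 6 and 6 at CP, with 6 and 2 at CM, and its part in this relation was not tested.

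GATA4, a regulator of cardiomyocyte genes, had 2.52 and 2.39 regions per 10,000 at hESC, 2.29 and 2.47 at MES, 3.46 and 3.31 at CP, and 3.71 and 4.08 at CM. The hESC and MES libraries overlapped, and every CP and CM library lay above them. Here r was 0.918 (exact permutation p = 0.00397, adjusted p = 0.104), with a rho of 0.83 (exact permutation p = 0.0198), and 0.777% of genes had a higher r. It was 0.963 without hESC (exact permutation p = 0.0222) and 0.819 without CM (exact permutation p = 0.111). With the numbers of regions left unscaled, r turned to −0.0751.

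GATA5 had 1.37 and 1.36 regions per 10,000 at hESC, 1.29 and 1.3 at MES, 1.41 and 2.15 at CP, and 2.08 and 2.72 at CM. CP replicate 1 stayed near the hESC values and CP replicate 2 reached those of CM. The relation with stage order gave r = 0.799 (exact permutation p = 0.0254, adjusted p = 0.156) and rho = 0.732 (exact permutation p = 0.0548), and 8.24% of genes had a higher r. Without hESC it was 0.846 (exact permutation p = 0.0444), and without CM 0.559 (exact permutation p = 0.267), so that it rests on the CM libraries. With the numbers left unscaled r was 0.0289 (exact permutation p = 0.971).

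GATA3 and GATA2, known from blood and trophoblast, had stages that overlapped. GATA3 held 0.841 and 1.36 regions per 10,000 at hESC, 1.39 and 0.959 at MES, 1.51 and 1.52 at CP, and 1.51 and 1.16 at CM. Its r was 0.469 (exact permutation p = 0.236, adjusted p = 0.426; rho 0.488, exact permutation p = 0.247), with 43.4% of genes above it and r = 0.306 without hESC and 0.635 without CM. GATA2 had 1.37 and 1.77 at hESC, 1.69 and 1.85 at MES, 1.95 and 1.52 at CP, and 1.39 and 1.75 at CM. Its r was −0.0227 (exact permutation p = 0.956, adjusted p = 0.976; rho 0, exact permutation p = 1), with 70.9% of genes above it and r = −0.439 without hESC and 0.341 without CM. The GATA2 value turned on list length. With lists cut to an equal length r was 0.79 (exact permutation p = 0.019, adjusted p = 0.157), and with the numbers left unscaled −0.589 (exact permutation p = 0.139). The difference in trend between the genes was not tested.

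**Figure D2:**
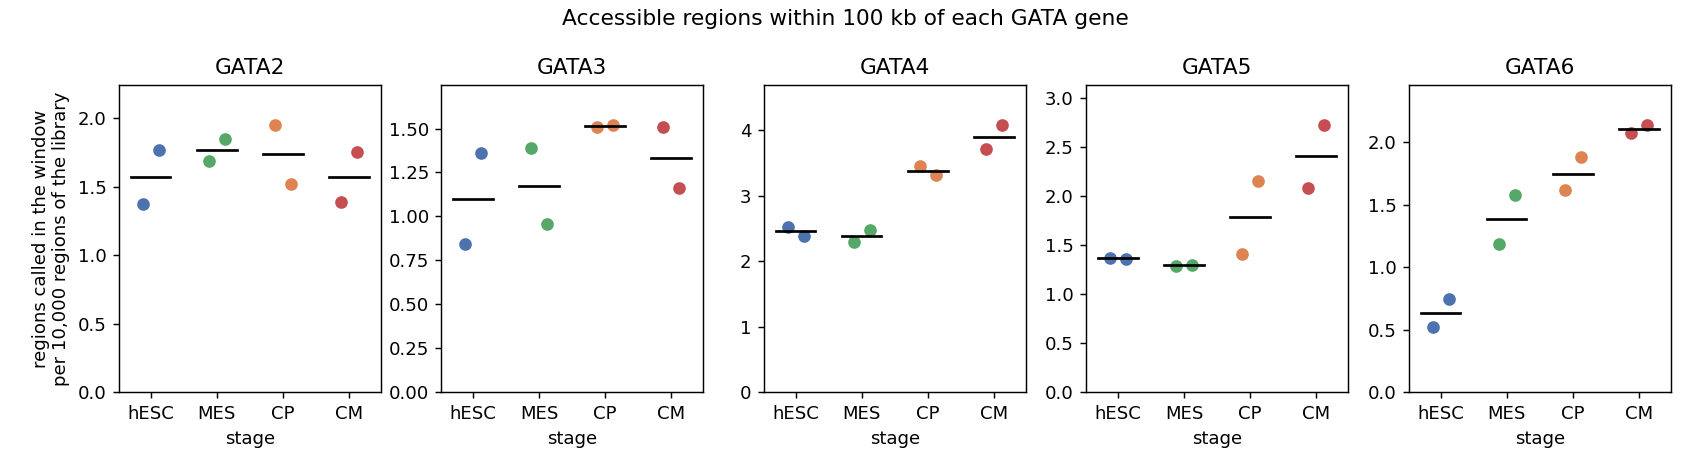
Regions called within 100 kb of each GATA gene per 10,000 autosomal regions of the library (y axis, starting at 0, with its own scale in each panel) by stage (x axis). Points are libraries and bars are means of 2. GATA6 goes from 0.525 and 0.75 at hESC to 2.08 and 2.14 at CM with no overlap between neighbouring stages, while the GATA2 stages overlap.

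The height of a peak is given as fold, the pileup of extended reads at its summit over the local background, each raised by 1. Own starts were taken as the 1 kb on either side of every annotated transcript start of the gene. GATA6 had 1 region there (chr18:22168766-22170381), which it shares with the start of its antisense gene GATA6-AS1, and counting without strand cannot separate the pair. Its fold was 3.27 and 3.65 at hESC, 4.75 and 5 at MES, 4.42 and 4.97 at CP, and 4.12 and 4.57 at CM. Both hESC libraries lay below the 6 others. In limma, fitted to the median-centred log2 fold of the 27170 regions called in all 8 libraries, it rose by 0.55 ± 0.14 in log2 units (SE; as for all such differences below) from hESC to CM (adjusted p = 0.0267), beside a median of 0.10 over all regions. From hESC to MES the difference was 0.39 ± 0.14 (adjusted p = 0.359). The hESC to CM call was lost without hESC replicate 1 (0.48, adjusted p = 0.152), hESC replicate 2 (0.61, adjusted p = 0.0974), CM replicate 1 (0.60, adjusted p = 0.06) or CM replicate 2 (0.63, adjusted p = 0.0748), with no centring (0.33, adjusted p = 0.245) and with the mean fold of the peaks in the region (0.12, adjusted p = 0.615).

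GATA4 has 8 distinct transcript starts on chromosome 8 and 5 regions at them. The region just upstream of the canonical start (chr8:11703684-11704330) had no peak in hESC replicate 1 and a fold of 3.41 in hESC replicate 2. It reached 3.76 and 3.43 at MES, 4.52 and 4.02 at CP, and 4.22 and 4.71 at CM. An upstream start 27.2 kb away (chr8:11676709-11677324), whose 200 bases at the summit hold 2 GATA words, was not called in either hESC library. There the fold was 3.36 and 3.81 at MES, 4.02 and 4.79 at CP, and 4.64 and 5.1 at CM, so that each stage lay above the one before apart from an overlap of CP with CM. The start 11.4 kb upstream was missing in hESC replicate 1 alone and had between 3.15 and 5.03 in the 7 others. A region 0.9 kb upstream was called in MES replicate 2 (2.25), CP replicate 2 (3.35) and both CM libraries (3.35 and 3.3), and the start 52.7 kb downstream in CP replicate 2 alone (4.15). None of these was called in all 8 libraries, and none was tested in limma.

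GATA5 has 1 annotated start (chr20:62475416-62476551). The fold was 3.41 and 2.72 at hESC, 3.28 and 3.62 at MES, 3.26 and 3.88 at CP, and 3.6 and 3.16 at CM, and the stages overlapped. Its limma difference from hESC to CM was 0.37 ± 0.16 (adjusted p = 0.14). GATA2 had no peak at its canonical 5′ start in any library. The peak among its starts lay 5.1 kb downstream (chr3:128487672-128488581), at alternative starts shared with the antisense gene GATA2-AS1, with 3.47 and 3.02 at hESC, 3.15 and 3.18 at MES, 3.45 and 4.27 at CP, and 3.44 and 4.15 at CM. Its difference from hESC to CM was 0.44 ± 0.15 (limma, adjusted p = 0.069). A further start 11.4 kb downstream was called in hESC replicate 2 alone (2.55).

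GATA3 has 4 regions at its 5 starts. The region 1.0 kb upstream of the canonical start (chr10:8053328-8053950), which also lies within 1 kb of a start of GATA3-AS1, was called in all libraries with 4.32 and 3.46 at hESC, 3.92 and 3.94 at MES, 3.7 and 3.39 at CP, and 3.62 and 3.72 at CM. Its change from hESC to CM was 0.14 ± 0.18 (limma, adjusted p = 0.596). The region at the canonical start itself (chr10:8054327-8054818) was called in hESC replicate 2 (2.18), in neither MES library, in both CP libraries (2.85 and 3.83) and in both CM libraries (3.21 and 3.52). The start 9.5 kb upstream was called in hESC replicate 2, both MES libraries and CP replicate 1 (2.42 to 2.88) and in no CM library, and the one 3.2 kb downstream in CP replicate 2 alone (2.59).

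**Figure D3:**
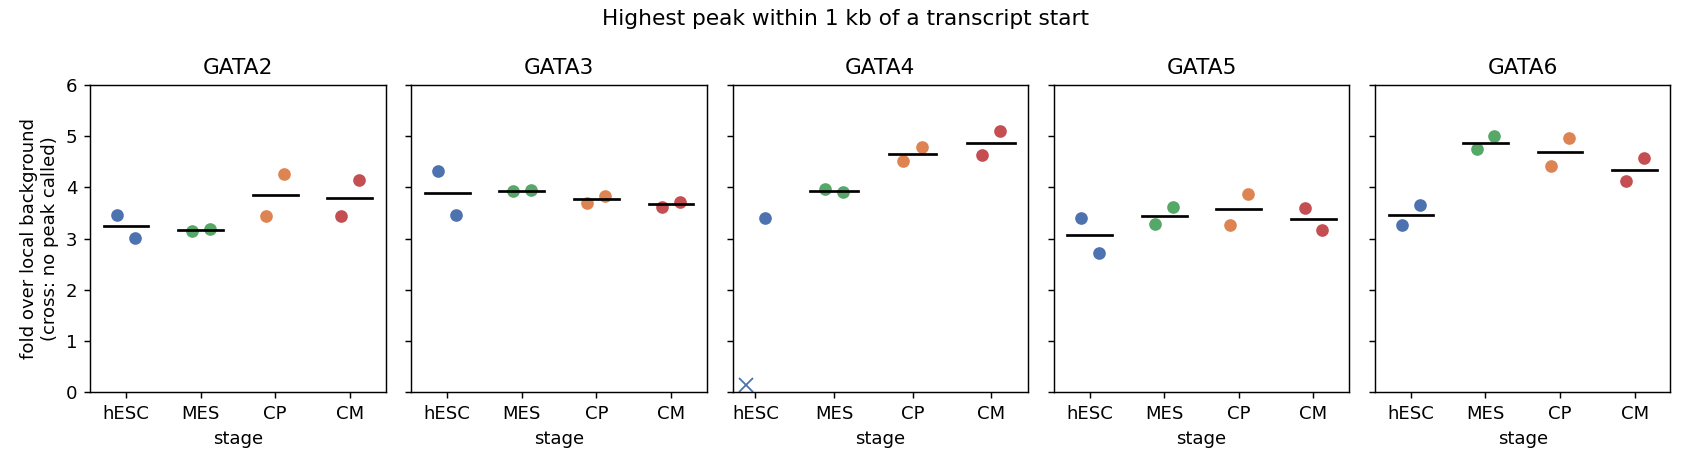
Highest fold over the local background within 1 kb of any transcript start of each gene (y axis, from 0) by stage (x axis). Points are libraries, bars are means of 2 and the cross is a library with no peak. For GATA6 both hESC libraries (3.27 and 3.65) lie below all others, and for GATA4 the CP values (4.52 and 4.79) overlap those of CM (4.64 and 5.1).

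A region was counted as gained when neither library of the earlier stage and both of the later one called it, and as lost in the opposite case. From hESC to CM, 14 of the 211 regions were gained (6.64%) and 12 were lost (5.69%). Over all autosomal regions 3.18% were gained and 13.5% lost, so that the family's share was above this background for gains and below it for losses. The gained regions were 6 around GATA4, 4 around GATA5, 2 around GATA3 and 1 each around GATA2 and GATA6. Losses came to 5 around GATA4, 3 each around GATA2 and GATA5, 1 around GATA3 and 0 around GATA6. The counts turn on list length and on which libraries are asked to agree. With lists cut to an equal length, 24 were gained and 5 lost, and the background was 3.89% gained and 5.15% lost. Without CM replicate 2, the library with the shortest list, 34 were gained, and the background was 11.9% gained. Without hESC replicate 2, 24 were gained, against a background of 4.18%. Without hESC replicate 1, 51 were lost, against a background of 33%. Without CM replicate 1, 29 were lost and 21 gained, and the background was 18.3% lost and 5.64% gained.

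By step, 16 regions were gained and 3 lost from hESC to MES, where the background was 5.98% gained and 3.94% lost, and the family's shares were 7.58% and 1.42%. From MES to CP 6 were gained and 8 lost (2.84% and 3.79%, background 2.15% and 6.10%). From CP to CM 3 were gained and 11 lost (1.42% and 5.21%, background 1.43% and 6.30%). The first step had the most gains and the last the most losses, in the family as over all autosomal regions. GATA6 had 5 of the 16 gains from hESC to MES (13.2% of its regions, background 5.98%). GATA2 and GATA4 had 4 and 5 of the 11 losses from CP to CM (8.33% and 8.77% of their regions, background 6.30%).

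**Figure D4:**
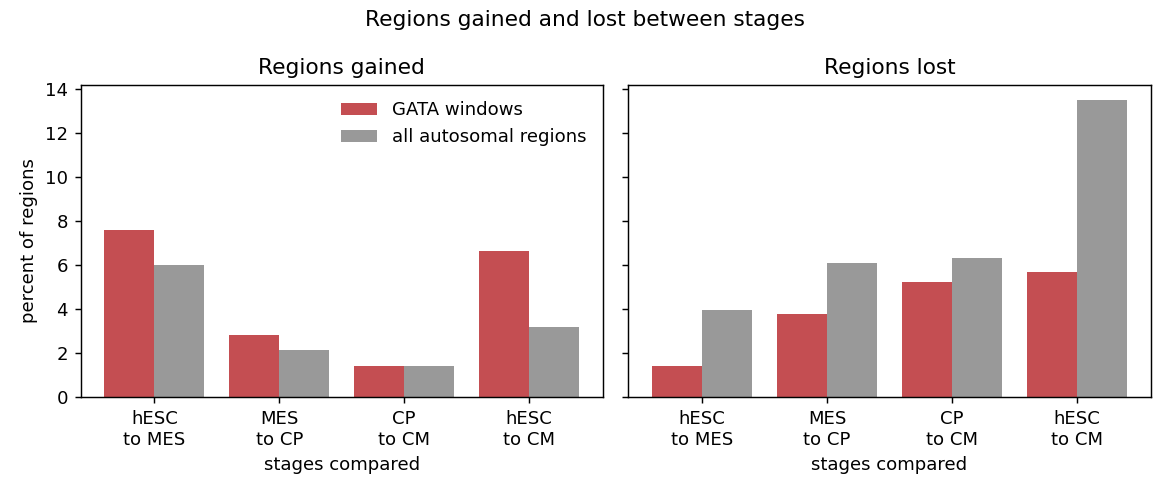
Percent of regions gained and lost (y axis, from 0) between the stages compared (x axis), for the 211 regions around the GATA genes and for all autosomal regions. From hESC to CM the family gained 6.64% and all regions 3.18%, while it lost 5.69% and all regions 13.5%.

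No region of the family was called in both hESC libraries and in no other, a pattern that 2.99% of all autosomal regions had. Patterns that started in MES were held by 5 regions called in MES alone (2.37%, against 2.74% of all autosomal regions). Another 1 was called in MES and CP (0.474%, against 0.688%) and 4 in MES, CP and CM (1.9%, against 0.367%). In CP and CM alone there were 2 (0.948%, against 0.452%), in CM alone 3 (1.42%, against 1.06%) and in CP alone 1 (0.474%, against 0.728%). A further 169 regions (80.1%, against 76.7%) had a stage in which 1 library called them and the other did not. The regions of MES alone lay 67.7 kb upstream of GATA6 (6.16 and 5.62) and 81.2 kb downstream of it (3.84 and 3.56), 19.9 kb (4.19 and 3.69) and 33.9 kb (2.63 and 2.77) downstream of GATA2, and 4.1 kb upstream of GATA3 (2.3 and 2.29).

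Around GATA6, the only gain from hESC to CM was the region 98.4 kb downstream whose sequence is given above (chr18:22267857-22268142). It was called in CM alone, with 5.1 and 4.85. Losses were 0 of 38. A region 58.9 kb upstream (chr18:22110418-22110944, chosen after its values were seen) had 3.71 and 5.42 at hESC, 7.87 and 11.2 at MES, 4.41 and 7.76 at CP, and 4.91 and 3.85 at CM, the highest values being those of MES. Its hESC to MES difference of 0.96 ± 0.22 did not pass in limma (adjusted p = 0.0763), but passed without CM replicate 2 and with the recovered pileup. A further region 75.2 kb upstream, also chosen after its values were seen, was called in neither hESC library. It was called in MES (3.67 and 6.64) and CP (5.57 and 7.36), and at CM in replicate 1 alone (3.25).

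Around GATA4, 3 gained regions had the highest fold in any 1 library. They lay in an intron 38.6 kb downstream of the canonical start and 116.0 and 91.0 kb upstream of it. The intronic one (chr8:11742485-11743143) was called in CP (4.25 and 6.73) and CM (4.06 and 5.59) only. The one 116.0 kb upstream was called in CP replicate 2 (5.99) and in CM (4.99 and 6.19). The one 91.0 kb upstream was called from MES on, with 3.49 and 4.38 at MES, 3.54 and 6.09 at CP, and 3.45 and 3.61 at CM. Among the lost regions, that 52.4 kb upstream had the highest fold, with 6.53 and 7.12 at hESC, no peak and 4.09 at MES, 4.25 and 4.91 at CP and no peak at CM. The lost regions 90.2 kb upstream and 16.9 kb downstream had 4.34 and 4.44, and 4.05 and 4.09 at hESC. A further gain, in an intron 22.6 kb downstream, had 3.87 and 5.19 at CM, and the others are the starts 27.2 and 0.9 kb upstream described above. An intronic region 32.3 kb downstream, open in all libraries, had 9.16 and 10.7 at hESC, 10.3 and 11.2 at MES, 7.93 and 12.1 at CP, and 6.58 and 5.47 at CM, with both CM libraries below all others. Its hESC to CM difference of −0.50 ± 0.16 did not pass (limma, adjusted p = 0.0619), but passed without CP replicate 1 and without CP replicate 2.

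Near GATA5, the gained region of highest fold lay 9.4 kb upstream (chr20:62485064-62485742). Its fold was 4.94 in CP replicate 2 and 2.77 and 4.98 at CM, with no peak elsewhere. An intronic region 1.7 kb downstream (chr20:62473958-62474553) was called from MES on, with 2.86 and 3.4 at MES, 4.15 and 4.54 at CP, and 3.56 and 4.49 at CM. The region 36.4 kb upstream was called in CM alone (3.22 and 3.4), and a gain 107.0 kb downstream was the weakest (2.31 and 2.58 at CM). Losses were seen 48.0 kb upstream (4.42 and 4.84 at hESC), 24.3 kb upstream (3.62 and 3.14) and 74.6 kb downstream in an intron of CABLES2 (3.91 and 4.82).

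GATA3 gained an intronic region 7.0 kb downstream of its start (chr10:8061227-8062149). Absent in hESC, it had 5.12 and 6.32 at MES, 4.03 and 7.14 at CP, and 4.57 and 5.43 at CM. Its second gained region, 62.5 kb downstream (chr10:8116905-8117424), holds 3 GATA words in the sequence above and was called in CP (4.51 and 7.09) and CM (4.4 and 4.22) only. The lost region, 11.1 kb upstream, went from 4.29 and 3.66 at hESC through 3.57 and 3.92 at MES and 2.8 and 3.23 at CP to no peak at CM. GATA2 gained 1 region, in an intron of EEFSEC 109.5 kb downstream of its start, called in CM alone (3.22 and 3.51). It lost 3, at 54.5 kb (3.77 and 4.03 at hESC), 80.4 kb (3.16 and 3.42) and 94.4 kb (2.8 and 2.81) downstream, the last of them in EEFSEC.

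**Figure D5:**
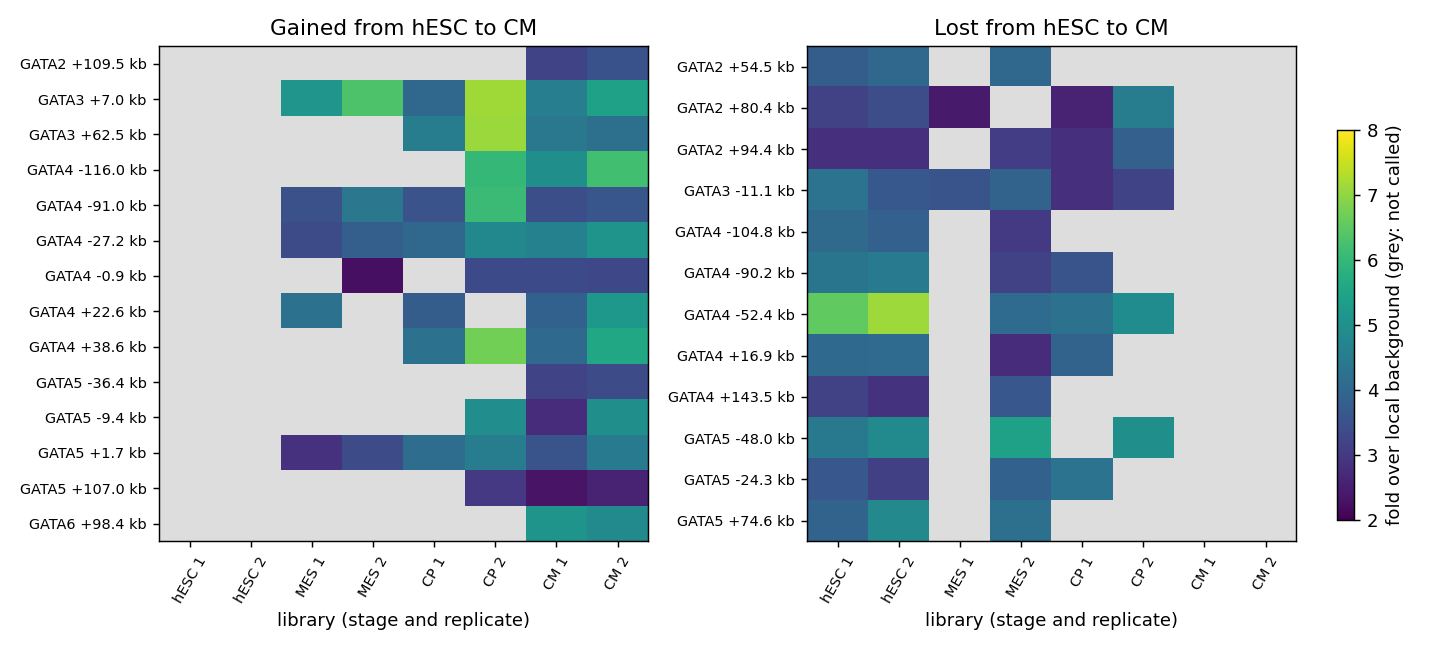
Fold over the local background (colour, 2 to 8) in each library (columns) of the 14 regions gained and the 12 lost from hESC to CM (rows, named by gene and distance from its start in kb). Grey cells are libraries with no peak. In the gained set, the regions 7.0 kb downstream of GATA3 and 91.0 kb and 27.2 kb upstream of GATA4 are coloured from MES on, and in the lost set MES replicate 1 is mostly grey.

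Fold differences were tested in limma on the 25 family regions called in all 8 libraries, with p-values adjusted over all 27170 such regions. From hESC to CM, 2 of 25 passed, both higher in CM, where 12.0% of all regions passed in either direction, and 11 (44%) had an unadjusted p under 0.05 against 31.3% of all. From CP to CM 1 of 25 passed, again higher, against 1.56%, and 5 (20%) had an unadjusted p under 0.05 against 18.8% of all. From hESC to MES 0 of 25 passed, against 0.795% of all regions, and 4 (16%) had an unadjusted p under 0.05 against 8.48% of all. From MES to CP it was also 0, against 0.364%, and 5 (20%) had an unadjusted p under 0.05 against 10.1% of all. The median hESC to CM difference was 0.17 over the 25 regions and 0.10 over all. It was positive in 17 of the 25 and negative in 8, beside 16626 positive and 10544 negative of all 27170. With no centring the median over all regions moved to −0.12 and 0 of 25 passed.

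Beside the GATA6 start, the other call from hESC to CM was the region 84.7 kb upstream of GATA2 (chr3:128577678-128578136). It had 4.55 and 2.95 at hESC, 4.23 and 4.66 at MES, 4.44 and 7.64 at CP, and 6.29 and 5.59 at CM, both CM libraries lying above both of hESC and of MES. It rose by 0.92 ± 0.21 (adjusted p = 0.0174), and the call was lost without hESC replicate 2 (0.58, adjusted p = 0.166), without CM replicate 1 (0.81, adjusted p = 0.0781) and with no centring (0.70, adjusted p = 0.151). A neighbour 91.3 kb upstream, with 9.93 and 8.35 at hESC and 4.22 and 5.39 at CM, differed by −0.71 ± 0.23 (adjusted p = 0.0573) and did not pass, but passed without MES replicate 1 and without MES replicate 2. The call from CP to CM lay 61.6 kb upstream of GATA4 in a noncoding gene, with 4.53 and 5.88 at hESC, 6.17 and 5.19 at MES, 3.41 and 4.25 at CP, and 4.67 and 7.25 at CM. It rose by 0.90 ± 0.20 (adjusted p = 0.0446). This call was lost in 7 of the 8 fits that leave out a library (adjusted p up to 0.237, without CM replicate 2), the exception being the fit without CM replicate 1 (0.0335).

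Genes that work with GATA factors were followed in the same way, as a list of 20. None of the 20 windows passed the adjusted threshold for stage order, as for all genes (0%). At an unadjusted exact permutation p under 0.05 there were 7 with a positive and 1 with a negative r. Over all genes 24.7% had such a p in either direction. The median r of the list was −0.03, below the 0.38 of all genes. NKX2-5 (r = 0.875) and TBX20 (r = 0.791), cardiac transcription factors, both had the smallest exact permutation p (0.000794, adjusted p = 0.0758, not passed). RUNX1 and LMO2, known from blood formation, had r = 0.914 (adjusted p = 0.0883) and r = 0.88 (adjusted p = 0.0995) by the exact permutation test. The window of ZFPM2, whose protein binds GATA4, went the other way (r = −0.927, exact permutation p = 0.00238, adjusted p = 0.0995). TBX5 and HAND2, also cardiac factors, had r = −0.181 (adjusted p = 0.783) and r = 0.204 (adjusted p = 0.773) by the exact permutation test. The start of ZFPM2 was called in all 8 libraries, with a fold between 7.02 and 8.57, and that of NKX2-5 went from 3.04 and 3.57 at hESC to 3.96 and 4.57 at CM.

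The start signal of each GATA gene was also set beside that of all other autosomal protein-coding genes more than 1 Mb away, by Pearson's r of log2(fold + 1) over the 8 libraries, with 0 where no peak was called. These are descriptions over 8 points that share the libraries' depth. Most alike to GATA6 were RPRML (r = 0.981), CDH24 and ZMYND11 (both 0.969), and 100 of 16230 genes had r above 0.9. For GATA4 they were CCDC80 (0.998), FOXC1 and HES3 (both 0.995), with 38 genes above 0.9, a likeness that turns on the missing peak in hESC replicate 1. For GATA5 they were ANKRD1 (0.971), CNTLN (0.958) and MAPK1IP1L (0.945), with 12 above 0.9. SOX12 (0.987), EGR2 (0.977) and HSPBP1 (0.976) were closest to GATA2, with 259 above 0.9, and HIVEP3 (0.950), GNA14 and HYOU1 (both 0.927) to GATA3, with 12 above 0.9.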

How the data were processed

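Per the labels and the study's methods, the authors mapped ATAC-seq reads of 8 RUES2 libraries (BWA 0.7.13, hg38), kept those with a mapping quality above 30, dropped duplicates (Picard) and ran MACS2 2.1.0 on each library (no model, q-value 0.01, shift of 100 bp, extension of 200 bp), so that replicates were not pooled. The q-value threshold sets which regions can be counted at all. The deposited peak lists give the fold over the local background (a ratio) and the −log10 p-value and −log10 q-value of each peak. All chromosome names and peak ends were checked against hg38.

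Peaks on chromosomes 1 to 22 were merged over libraries where they share at least 1 bp. A library's value in a region is its peak of highest fold, and a region with no peak has no value. The pileup of each peak, a whole number, was recovered from its fold and −log10 p-value (100% within 0.001 of the deposited value) and used only as an alternative. Window counts were tested by exact permutation (Python 3.11.15, numpy 2.4.6), and log2 fold by limma 3.58.1 in R 4.3.3 with stage as the term, all 8 libraries in 1 fit and Benjamini-Hochberg adjustment over all regions tested, with a threshold of 0.05. An exact test of 2 against 2 libraries cannot go below p = 0.333. Regions called in fewer than 8 libraries were described by presence, with no test. Both tests were tested on simulated data. Nothing in the sources used here says whether replicate ATAC-seq libraries came from separate differentiations, so p-values measure the spread between libraries, which may be technical. Stages were taken from the labels.

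Regions named by rule were, per gene, those at its own starts and the largest fitted change in each direction. The 3 gained and 3 lost from hESC to CM with the highest fold in any library were also named. GATA word regions of CP and CM or CM alone, and the 3 genes most like each gene, completed the rule. The members, gene lists and rules were chosen with earlier results of these data known. Alternatives were no scaling, day for stage order, windows of 50 and 200 kb, a −log10 q-value of at least 5, lists of equal length (54018 peaks), no centring, quantile normalization, mean fold, recovered pileup, a replicate block, peaks of either replicate, starts of 0.5 kb, and leaving out each library. A region of the GATA6 window is not reported here.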

Additional observations from a re-analysis of the deposited data

How the results depend on the processing

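The GATA5 and GATA6 windows had a positive r under every alternative run, but with no scaling it was 0.0289 for GATA5 and 0.402 for GATA6. GATA4 did so apart from no scaling (−0.0751). GATA3 turned to −0.319 with no scaling. GATA2, near 0, turned positive with windows of 50 kb (0.0421) and 200 kb (0.618), with lists of equal length (0.79) and in some of the fits that leave out a library (−0.427 to 0.321). No window of the 5 passed under any alternative. In the main run GATA6 already had the smallest exact permutation p that the assignments allow (0.000794), and its adjusted p was 0.0758 even so. Whether a window can pass is thus limited by the number of assignments. The 2 regions called from hESC to CM became 0 with no centring, 1 with mean fold, 7 with the recovered pileup, 1 with a −log10 q of at least 5, and 0 to 4 when a library was left out. The 1 called from CP to CM became 0 with no centring, quantile normalization and mean fold, and 0 to 1 when a library was left out. With the recovered pileup 1 was called, but a different one, 149.6 kb downstream of the GATA4 start, and the region 61.6 kb upstream did not pass in limma (adjusted p = 0.0665). From hESC to MES the recovered pileup called 2, and leaving out a library 0 to 1. From hESC to CM, the 14 gained and 12 lost regions became 41 and 55 with peaks of either replicate. Over all autosomal regions 14.4% were then gained and 37.3% lost. With lists of equal length 24 were gained and 5 lost, and the background was 3.89% and 5.15%. Within 50 kb 9 were gained and 6 lost, and within 200 kb 21 of each, where the background was 3.18% gained and 13.5% lost. The numbers of family regions within 50 and 200 kb are not given here, so these counts cannot be compared with that background. When a library was left out, 14 to 34 were gained and 12 to 51 lost. The background was then 3.18% to 11.9% gained and 13.5% to 33% lost. The causes were not tested.

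With a replicate block, 4 regions of the family passed from hESC to CM in place of 2 (3453 in place of 3258 over all regions), the added ones being 99.4 kb downstream of the GATA5 start (higher in CM) and 91.3 kb upstream of GATA2 (lower in CM). Deviations of same-numbered libraries correlated between −0.12 and 0.19, not above 0.1 for every pair of stages, so the numbers were not taken as pairing the samples, and the block changed no other call of the family. Depth limits absence calls most in CM replicate 2, which has the shortest list.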
